A study of Mus musculus with 16 samples.

Results

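The genes described here are 36 mouse genes of the NRF2, glutathione and antioxidant system, out of 33072 genes in the count table. They were taken from a written list of gene symbols covering the factor NRF2 and its inhibitor, glutathione synthesis, the recycling of glutathione and thioredoxin, NADPH supply, glutathione transferases, peroxide and superoxide removal, and quinone, carbonyl and epoxide enzymes. Each symbol was matched to exactly 1 Ensembl gene identifier (GRCm38) of the table. RNA was sequenced from 2 lines of the 4T1 model, which stem from the same spontaneous mammary carcinoma of a BALB/c mouse: 67NR, which does not metastasize, and 4T1, which does. Cultures of each line received either the vehicle DMSO or 15 µM CIX, an inhibitor of the cytosolic phospholipase cPLA2α, for 24 h in serum-containing medium. The 4 groups, called 67NR vehicle, 67NR CIX, 4T1 vehicle and 4T1 CIX, held 4 samples each, 16 in all, and samples are named by group and by the number in their title. Each line stood for its metastatic class alone, and CIX was given at a single dose and time with no second compound beside it.

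NRF2, the product of Nfe2l2, is a transcription factor that KEAP1 holds for degradation by a cullin ubiquitin ligase until electrophiles or oxidants modify cysteines of KEAP1. Freed NRF2 pairs with small MAF proteins on antioxidant response elements in DNA and switches on genes for glutathione synthesis, thioredoxin recycling, NADPH production and detoxifying enzymes. Tumour cells often keep this system active, and NRF2 activity depends largely on the protein's stability, which RNA counts do not show.

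The antioxidant response element has the core TGACNNNGC, and the promoter sequences of the members are shown because this is the element through which NRF2 acts. In RefSeq promoter windows of GRCm38.p6, running from 250 bases before to 50 bases after a gene's start, the core was searched on both strands, and overlapping matches were counted. It was found in 12.4% of all 32851 windows and in 11 of the 42 windows (26.2%) of the 32 members that could be matched. The 11 members were Nfe2l2, Gclm, Txnrd1, Srxn1, Prdx1, Sod1, Me1, Pgd, G6pdx, Mgst1 and Ugdh. In Me1, Srxn1 and Pgd the core reached over the start or lay after it. The others are printed 5′ to 3′ on the gene's strand with the core in capitals, read as TGACNNNGC on the gene's strand in Nfe2l2 and Ugdh and as its reverse complement GCNNNGTCA in the rest.

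Nfe2l2 (chr2:75704885-75704913, minus strand): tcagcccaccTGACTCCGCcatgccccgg
Gclm (chr3:122245373-122245481, plus strand): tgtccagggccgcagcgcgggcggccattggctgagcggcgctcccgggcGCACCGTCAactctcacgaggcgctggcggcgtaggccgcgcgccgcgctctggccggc
Txnrd1 (chr10:82859064-82859172, plus strand): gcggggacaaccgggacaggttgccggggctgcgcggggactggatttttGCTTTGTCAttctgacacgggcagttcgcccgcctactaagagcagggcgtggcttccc
Prdx1 (chr4:116685416-116685524, plus strand): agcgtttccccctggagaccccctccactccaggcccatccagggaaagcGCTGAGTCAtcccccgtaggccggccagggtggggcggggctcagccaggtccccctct
Sod1 (chr16:90220656-90220753, plus strand): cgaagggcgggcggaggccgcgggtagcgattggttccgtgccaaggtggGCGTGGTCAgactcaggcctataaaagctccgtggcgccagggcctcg
Mgst1 (chr6:138140461-138140489, plus strand): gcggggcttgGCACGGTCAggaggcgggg
G6pdx (chrX:74428919-74428947, minus strand): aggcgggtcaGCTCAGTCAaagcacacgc
Ugdh (chr5:65435950-65436024, minus strand): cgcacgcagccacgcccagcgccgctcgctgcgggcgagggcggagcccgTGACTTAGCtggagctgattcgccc

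The window of Ugdh held a second core, which an annotated exon covers and is not printed. The shorter stretches of Nfe2l2, Mgst1 and G6pdx were trimmed because annotated transcripts run through them. A core is a match of letters, not a bound site. The matched windows of Nqo1, Taldo1, Gpx1, Ephx1 and Gstt4, whose values are given below, held no core within these 300 bases.

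The samples held 21715700 to 29450629 estimated counts, so that 3 counts amounted to 0.102 to 0.138 CPM (counts per 1000000 counted). In a principal component analysis of all 16 samples, the first component (82.4% of the variance) separated the lines. 67NR vehicle 13 stood apart within its group: the mean chi-square per gene between its counts and those of the other 3 samples was 92.2 to 107, against 18.1 to 21.5 among those 3. The counts of called members in 67NR, in the difference of the response and between the untreated lines are given with and without 67NR vehicle 13. Pairs of 4T1 vehicle samples ran from 33.3 to 116. Within 4T1 alone, vehicle 3 and CIX 4 lay together at 1 end of the second component (15.3% of the variance, at -30.3 and -25.1) and vehicle 11 and CIX 12 at the other (26.2 and 17.5), while the labels state no pairing of the samples. The cells of 67NR were poor in epithelial transcripts: 8 epithelial markers, Epcam and Cdh1 among them, summed to 1.79 to 5.58 CPM in 67NR vehicle and to 2543 to 2727 CPM in 4T1 vehicle, while 8 mesenchymal markers summed to 6563 to 7062 and 2500.0 to 3311 CPM. Of these 8, Fn1 lay the other way, at a mean of 1273 CPM in 67NR vehicle and 1654 CPM in 4T1 vehicle (log2 fold change 0.35, adjusted p = 0.0464). Under CIX the mesenchymal sum ran from 9530.5 to 10314 CPM in 67NR and from 4339 to 5251 CPM in 4T1. Vim made up most of that difference, at a mean of 5079.5 CPM in 67NR vehicle and 7684 CPM in 67NR CIX, and at 1114 and 2668 CPM in 4T1. Pdgfrb lay the other way in 67NR, at 41.9 to 60.3 CPM in vehicle and 28.7 to 34.9 CPM in CIX samples (adjusted p = 0.00425). The epithelial sum in 4T1 CIX was 2697 to 2957 CPM, and its markers moved both ways. Epcam fell (log2 fold change -0.78, adjusted p = 0.000127) and Esrp1 rose (0.76, 0.000407), while Cldn7 (-0.87, 0.00131) and Krt19 (0.68, 0.00373) missed the threshold of 0.001. The 5 leukocyte markers summed to 8.01 to 12.2 CPM in 67NR vehicle, 34.7 to 40.6 in 67NR CIX, 52.4 to 88.8 in 4T1 vehicle and 132 to 198 in 4T1 CIX. Of these Adgre1 was at 0 in all 16 samples, while Cd68, at 7.57 to 11.8 CPM in 67NR vehicle and 132 to 198 CPM in 4T1 CIX, made up most of each sum. The part of these cell states in the results on the members was not tested. In bulk RNA a smaller share of cells with a transcript and less of it in each cell cannot be told apart.

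Most members were expressed in both lines. On an approximate TPM scale (counts divided by the mean transcript length and scaled to a sum of 1000000 per sample), the 36 members summed to 6234 ± 708 TPM (mean ± SD, n = 4) in 67NR vehicle, 5314 ± 282 in 67NR CIX, 5833 ± 447 in 4T1 vehicle and 5320.0 ± 286 in 4T1 CIX. Gpx4, the peroxidase that reduces lipid peroxides in membranes, had the highest mean in both vehicle groups, with 1356 ± 999 TPM in 67NR and 909 ± 536 TPM in 4T1, with a spread that came largely from 1 sample in each group, described further on. Prdx1, a thioredoxin-dependent peroxidase, was at 667 ± 18.9 and 791 ± 68.4 TPM. Without 67NR vehicle 13, Gpx4 was at 857 ± 52.8 TPM (n = 3) in 67NR and the sum of all members at 5882 ± 95.4 TPM. Without 4T1 vehicle 11, Gpx4 was at 653 ± 198 TPM in 4T1, below Prdx1 at 801 ± 80.2, so that the order of these 2 in 4T1 rests on that sample. The lines differed below these. In 67NR the following places were held by Txn1 (474 ± 19.0 TPM), Taldo1 (366 ± 39.6), Gstm1 (362 ± 33.4) and Ephx1 (359 ± 37.3), of which the last 3 lay within their spread of each other. In 4T1 they were held by Tkt (491 ± 25.4 TPM), Gsta4 (448 ± 80.1), Txn1 (329 ± 53.1) and Prdx6 (282 ± 55.2), where Tkt and Gsta4, and likewise Txn1 and Prdx6, lay within their spread of each other. The 5 enzymes for quinones, carbonyls, epoxides and conjugation, NQO1, CBR1, EPHX1, BLVRB and UGDH, were the group with the widest gap in summed level: 629 ± 61.4 TPM in 67NR vehicle and 159 ± 8.01 TPM in 4T1 vehicle. The 4 genes for glutathione synthesis and cystine import summed to 151 ± 7.31 and 121 ± 4.86 TPM.

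The first comparison asked how the system responded to CIX in metastatic 4T1 cells. Nqo1, the quinone reductase often read as an indicator of NRF2 activity, rose in CIX-treated 4T1 cells, as did Taldo1, the transaldolase of the pentose phosphate pathway, while Gpx1, the main cytosolic glutathione peroxidase, fell. Calls were made with limma-voom where the p adjusted over all genes tested (Benjamini-Hochberg) was below 0.001. By this rule 2 of 35 members were higher and 1 was lower, where 5.35% of all 11659 genes tested were called higher and 3.99% lower. The median log2 fold change was 0.048 over the members and -0.007 over all genes. In 11 of 35 members the CIX and vehicle samples did not overlap in CPM, against 39.9% of all genes. Gstt4 did not pass the filter on low levels in 4T1 and is described with the difference between the lines.

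Nqo1 (ENSMUSG00000003849, chr8:107388225-107403206, minus strand) was at 7.33, 2.88, 3.05 and 4.06 CPM in the 4T1 vehicle samples 3, 7, 11 and 15 and at 27.9, 20.3, 24.6 and 26.1 CPM in the 4T1 CIX samples 4, 8, 12 and 16. All 4 treated samples lay above all 4 controls, of which vehicle 3 was the highest. The log2 fold change was 2.58 ± 0.26 (SE), adjusted p = 0.000134, and the call held when any 1 of the 8 samples was left out (2.43 to 2.87). Taldo1 (chr7:141392199-141402968, plus strand) was at 82.8, 68.5, 72.8 and 72.4 CPM in vehicle and 129, 128, 134 and 118 CPM in CIX samples, again without overlap, and its log2 fold change was 0.76 ± 0.10 (SE), adjusted p = 0.000352. Its call was kept without vehicle 3 or CIX 4 and lost without each of the other 6 samples, with adjusted p-values of 0.00108 to 0.00212 and log2 fold changes of 0.73 to 0.80. Taldo1 shares 14.0% of its 31-base words with transcripts of other genes, a processed pseudogene among them, so that its count is less certain.

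Gpx1 (chr9:108338903-108340343, plus strand) was at 147, 108, 105 and 113 CPM in 4T1 vehicle and 65.1, 64.5, 63.9 and 65.8 CPM in 4T1 CIX samples. The treated samples lay close together below every control, and vehicle 3 was the highest control. Its log2 fold change was -0.87 ± 0.12 (SE), adjusted p = 0.000588. The call was kept without vehicle 3 and lost without each of the other 7 samples, with adjusted p-values of 0.00105 to 0.00261 and log2 fold changes of -0.92 to -0.87. Of 8 alternative ways of processing, 7 kept the call.

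**Figure D1:**
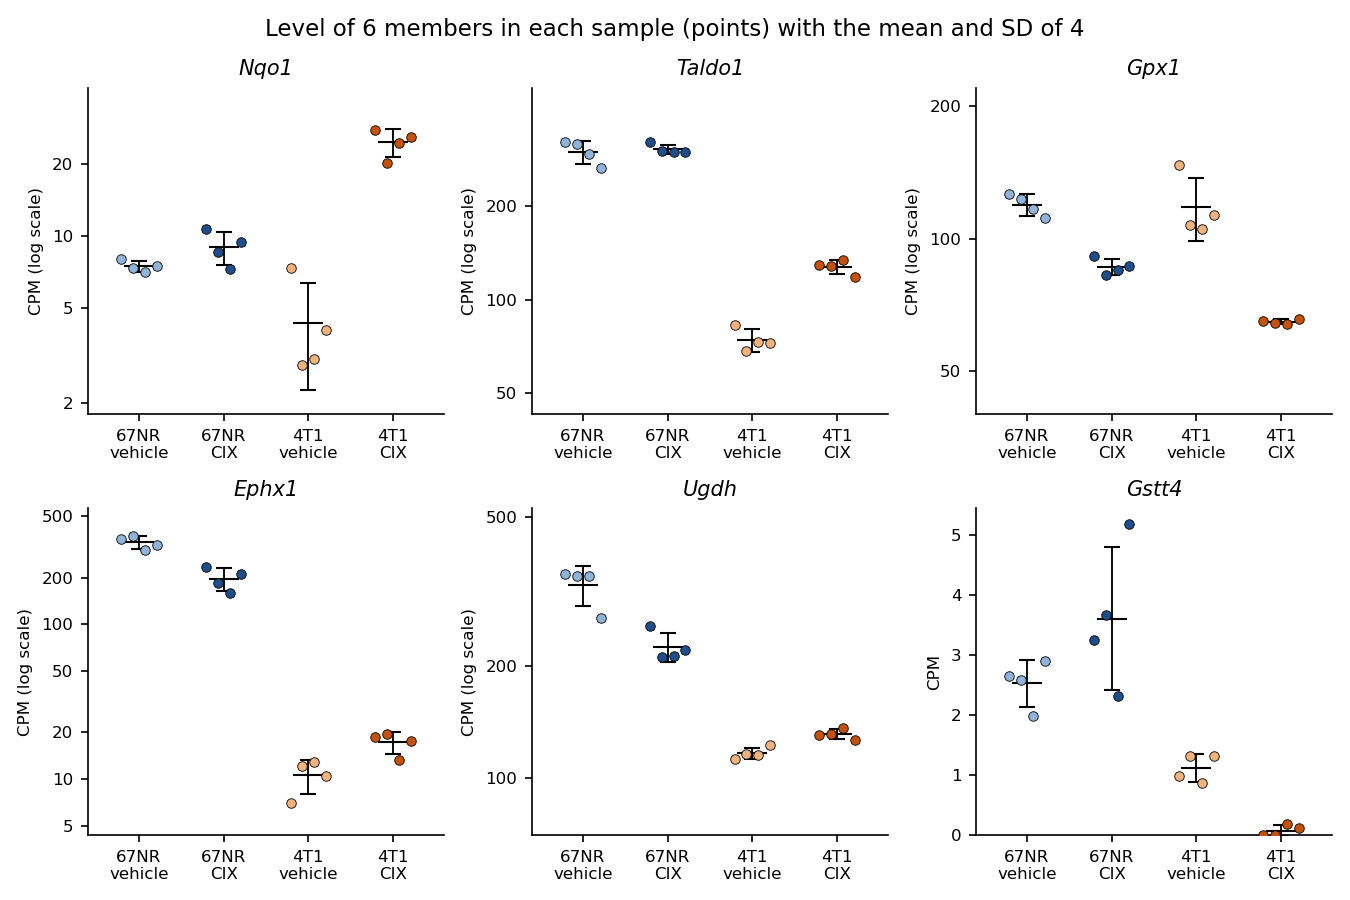
Level in CPM of Nqo1, Taldo1, Gpx1, Ephx1, Ugdh and Gstt4 in each of the 16 samples (points) by group, with the mean and SD of 4 samples (bars), on a log axis except for Gstt4, whose axis starts at 0. Nqo1 ran from 20.3 to 27.9 CPM in 4T1 CIX and from 2.88 to 7.33 CPM in 4T1 vehicle, and Gstt4 was at 0 in 2 of the 4 samples of 4T1 CIX.

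At the looser threshold of an adjusted p of 0.05, 8 of 35 members were higher and 6 lower in CIX-treated 4T1 cells, where 21.9% of all genes tested were higher and 20.8% lower. Beside Nqo1 and Taldo1 the higher members were Gstp1 (log2 fold change 0.77 ± 0.15 (SE), adjusted p = 0.00284), a transferase of the pi class, Ephx1 (0.70 ± 0.21 (SE), adjusted p = 0.0243), the microsomal epoxide hydrolase, Blvrb (0.61 ± 0.15 (SE), adjusted p = 0.00883), a flavin and biliverdin reductase, the microsomal transferase Mgst3 (0.58 ± 0.17 (SE), adjusted p = 0.0196), and the pentose phosphate enzymes Pgd (0.57 ± 0.19 (SE), adjusted p = 0.0345) and Tkt (0.24 ± 0.07 (SE), adjusted p = 0.0236). Of the 5 NADPH-supply genes 3 thus passed 0.05, all higher. The other members of this group, G6pdx (-0.14 ± 0.11 (SE), adjusted p = 0.326) and Me1 (-0.01 ± 0.16 (SE), adjusted p = 0.954), did not. With 1 sample left out, Pgd passed 0.05 only without vehicle 3. Outside the members, the NADP-dependent Idh1 was called lower (-1.39 ± 0.12 (SE), adjusted p = 6.7e-05). NADPH itself was not measured. Beside Gpx1 the lower ones were the theta-class transferase Gstt1 (-1.20 ± 0.30 (SE), adjusted p = 0.0104), Gsr (-0.67 ± 0.11 (SE), adjusted p = 0.00111), which reduces oxidized glutathione with NADPH, Gsta4 (-0.51 ± 0.15 (SE), adjusted p = 0.0192), which conjugates lipid aldehydes, Gstm2 (-0.49 ± 0.17 (SE), adjusted p = 0.0443) and Prdx1 (-0.28 ± 0.10 (SE), adjusted p = 0.05). Leaving out 1 sample moved the number past 0.05 between 8, without CIX 16, and 14, and it was 9 without vehicle 7 or CIX 8. Gsr passed 0.001 without CIX 4 (adjusted p = 0.000621). Counts of Gstp1, Prdx1 and Gstm2 are less certain, since 38.5%, 15.2% and 12.2% of their 31-base words occur in other genes.

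The regulators and the glutathione synthesis genes did not pass either threshold in 4T1 with all 8 samples. With 1 sample left out, Keap1 passed 0.05 without vehicle 15 (adjusted p = 0.0403), Slc7a11 without vehicle 3 and Gclm without vehicle 11. Nfe2l2 (chr2:75675513-75704641, minus strand) was at 128, 129.5, 142 and 136 CPM in 4T1 vehicle and 119.7, 148, 176 and 158 CPM in 4T1 CIX samples. The treated samples spread on both sides of the controls, and the log2 fold change was 0.14 ± 0.12 (SE), adjusted p = 0.367. Keap1 (chr9:21229730-21239361, minus strand) was at 66.3, 51.9, 48.2 and 75.5 CPM in vehicle and 88.0, 71.2, 83.9 and 68.6 CPM in CIX samples, which overlapped, with a log2 fold change of 0.36 ± 0.16 (SE), adjusted p = 0.0937. The log2 fold changes were 0.53 ± 0.24 (SE), adjusted p = 0.0947 for the cystine importer Slc7a11, 0.49 ± 0.20 (SE), adjusted p = 0.0662 and 0.12 ± 0.20 (SE), adjusted p = 0.652 for the modifier and catalytic subunits of glutamate-cysteine ligase, and 0.09 ± 0.11 for glutathione synthetase Gss. Of the recycling genes, Txnrd1 (0.05 ± 0.11), Txn1 (0.07 ± 0.12) and Srxn1 (-0.04 ± 0.16), which repairs over-oxidized peroxiredoxins, lay within their standard errors of 0. The other 12 tested members, Cat, Cbr1, G6pdx, Gpx4, Gstm1, Gsto1, Me1, Mgst1, Prdx6, Sod1, Sod2 and Ugdh, had log2 fold changes of -0.34 (Cbr1) to 0.22 (Cat).

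The same comparison in non-metastatic 67NR cells gave no called member. By limma-voom 0 of 35 members passed an adjusted p of 0.001, where 0.182% of all 11560 genes tested were called higher and 0.208% lower. Of these members 15 had an unadjusted p below 0.05, as had 32.8% of all genes. At an adjusted p below 0.001 edgeR called 0 members and DESeq2 called 9, where DESeq2 called 9.4% of all genes with an adjusted p. At an adjusted p of 0.05, 5 members were higher and 6 lower, where 8.51% of all genes were higher and 9.26% lower. The median log2 fold change was -0.022 over the members and -0.006 over all genes, and in 11 of 35 members the groups did not overlap, against 24.0% of all genes. Mgst1 did not pass the filter in 67NR.

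Among the members higher at 0.05 in 67NR, Slc7a11 (chr3:49892526-50443614, minus strand) had the largest difference. It was at 4.00, 1.16, 2.30 and 3.87 CPM in 67NR vehicle samples 1, 5, 9 and 13 and at 6.20, 6.81, 9.44 and 9.06 CPM in 67NR CIX samples 2, 6, 10 and 14. Every treated sample exceeded every control, at levels far under those of 4T1, and the log2 fold change was 1.56 ± 0.35 (SE), adjusted p = 0.0169. The others were Srxn1 (0.45 ± 0.08 (SE), adjusted p = 0.00909), the peroxiredoxin Prdx6 (0.37 ± 0.07 (SE), adjusted p = 0.00758), Gsta4 (0.36 ± 0.08 (SE), adjusted p = 0.0145) and Blvrb (0.30 ± 0.08 (SE), adjusted p = 0.0286). The lower members were Ephx1 (-0.81 ± 0.12 (SE), adjusted p = 0.00345), Gstm2 (-0.69 ± 0.10 (SE), adjusted p = 0.00275), Ugdh (-0.57 ± 0.10 (SE), adjusted p = 0.00571), Gpx1 (-0.49 ± 0.06 (SE), adjusted p = 0.00184), Gsr (-0.47 ± 0.14 (SE), adjusted p = 0.0448) and Nfe2l2 itself. Without 67NR CIX 2, Gstm2 passed 0.001 (adjusted p = 0.000649), and the number past 0.05 ran from 7, without vehicle 9, to 13, without CIX 2. Without 67NR vehicle 13, the library that stood apart, 0 members were called and 11 passed 0.05, 5 higher and 6 lower.

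Nfe2l2 was at 248, 249, 236 and 205 CPM in 67NR vehicle and 198, 175, 192 and 190.3 CPM in 67NR CIX samples. The treated samples were all below the controls, of which vehicle 13 came nearest to them, and the log2 fold change was -0.33 ± 0.07 (SE), adjusted p = 0.0156. Without vehicle 9 its adjusted p was 0.0506. Keap1 was at 72.8, 73.9, 69.6 and 83.5 CPM in vehicle and 71.7, 72.9, 50.7 and 68.9 CPM in CIX samples, with overlap and a log2 fold change of -0.21 ± 0.12 (SE), adjusted p = 0.284. Nqo1, at 8.00, 7.39, 7.05 and 7.53 and 10.7, 8.59, 7.29 and 9.49 CPM, also overlapped (0.24 ± 0.13 (SE), adjusted p = 0.243). The log2 fold changes of the 24 members that did not pass 0.05 ran from -0.56 (Gpx4) to 0.46 (Gstt4).

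**Figure D2:**
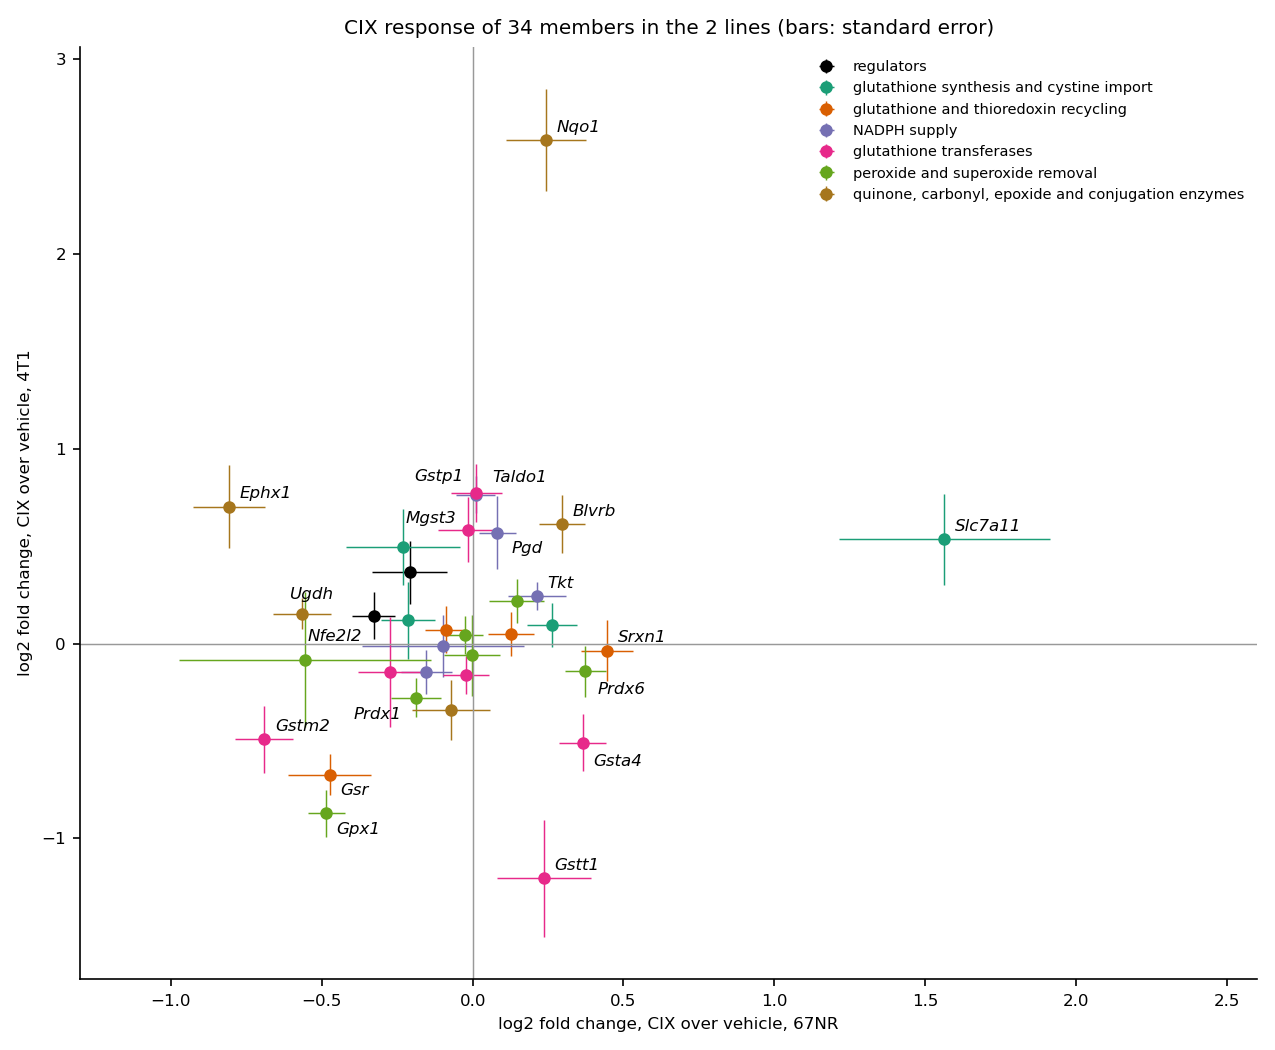
Log2 fold change of CIX over vehicle in 4T1 (vertical axis) against that in 67NR (horizontal axis) for the 34 members tested in both lines, coloured by role, with standard errors as bars and names for members past an adjusted p of 0.05 in either line. Nqo1 lies at 2.58 in 4T1 and 0.24 in 67NR, and Ephx1 at 0.70 and -0.81.

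Set side by side, 6 members passed 0.05 in both lines, and the 2 comparisons share no sample. Blvrb was higher in both, Gpx1, Gsr and Gstm2 were lower in both, and Ephx1 and Gsta4 went opposite ways. Most of these depended on single samples. With 1 sample left out, Gsr passed 0.05 in 67NR only without CIX 2, and Blvrb only without vehicle 5, CIX 2 or vehicle 13. In 4T1, Gstm2 passed it only without CIX 4 or vehicle 11, and Ephx1 only without vehicle 3, 7 or 11 or CIX 12. Gsta4 lost it in 4T1 without CIX 16, and Gpx1 kept it throughout in both lines. Of all 10614 genes tested in both lines, 8.52% passed 0.05 in both, and 5.84% did so with the same sign. A further 8 members passed 0.05 in 4T1 alone, 5 (Nfe2l2, Prdx6, Slc7a11, Srxn1 and Ugdh) in 67NR alone and 15 in neither, against 33.9%, 9.26% and 48.3% of all genes. Over all 34 members tested in both lines, 10 fold changes were above 0 in both, 11 below 0 in both, and 13 of opposite sign (9 above 0 in 4T1, 4 above 0 in 67NR), where 59.1% of all genes had the same sign in both lines.

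Whether the response itself differed between the lines was tested as an interaction in a fit of all 16 samples. It rests on the same samples as the comparisons within the lines and shares its vehicle samples with that between the lines. Of 36 members, 4 had a higher response in 4T1 (Nqo1, Ephx1, Taldo1 and Ugdh) and 1 a lower one (Gstt4), where 4.81% of all 12605 genes tested were called higher and 3.05% lower. Gstt4 passed the filter on low levels for this test through 67NR alone, where it is higher, so that its call adds nothing to the count of members. At 0.05 these numbers were 8 and 6, against 15.1% and 14.2% of all genes. The median difference was 0.068 over the members and -0.019 over all genes.

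The difference of the log2 response, 4T1 minus 67NR, was 2.34 ± 0.30 (SE), adjusted p = 5.25e-05 for Nqo1 and 0.75 ± 0.11 (SE), adjusted p = 0.000143 for Taldo1. Taldo1 was at 319.6, 316, 293 and 265 CPM in 67NR vehicle and 319.9, 299, 297 and 298 CPM in 67NR CIX, which overlapped. Both calls held without any 1 of the 16 samples.

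Ephx1 (chr1:180976210-181020904, minus strand) was at 6.96, 12.2, 12.9 and 10.4 CPM in 4T1 vehicle and 18.8, 19.4, 13.3 and 17.6 CPM in 4T1 CIX samples. In 67NR it was at 354, 374, 303 and 322 CPM in vehicle and 236, 183, 159 and 209 CPM in CIX samples. It thus lay higher under CIX in 4T1 and lower under CIX in 67NR, without overlap in either line, and the difference was 1.51 ± 0.25 (SE), adjusted p = 0.000412. That call was lost without 67NR vehicle 1, 4T1 CIX 8, 4T1 vehicle 15 or 4T1 CIX 16, with adjusted p-values of 0.00103 to 0.00134 and differences of 1.45 to 1.51. Ugdh (chr5:65413221-65435949, minus strand), which makes the UDP-glucuronate used to conjugate drugs and hormones, was at 113, 116, 115 and 122 CPM in 4T1 vehicle and 131, 131, 136 and 126 CPM in 4T1 CIX samples. In 67NR it was at 352, 348, 348 and 269 CPM in vehicle and 255, 211, 212 and 221 CPM in CIX samples. The 67NR samples lay lower under CIX without overlap (-0.57 ± 0.10 (SE), adjusted p = 0.00571). The 4T1 samples lay slightly higher under CIX, which passed neither threshold (0.15 ± 0.08 (SE), adjusted p = 0.144). The difference of the response of Ugdh was 0.72 ± 0.13 (SE), adjusted p = 0.000708. It kept its call without 67NR CIX 2 or 67NR vehicle 13 and lost it without each of the other 14 samples, with adjusted p-values of 0.00128 to 0.00231 and differences of 0.66 to 0.74.

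Gstt4 (chr10:75814943-75822543, minus strand), a theta-class transferase next to Gstt1, was scarce. Its estimated counts were 24, 30, 20 and 32 in the 4T1 vehicle samples and 0, 0, 5 and 3 in the 4T1 CIX samples, 106 and 8 in sum. In 67NR they were 67, 58, 50 and 68 in vehicle and 84, 89, 51 and 119 in CIX samples. The treated 4T1 samples thus lay at or close to the limit of detection, below all others. The fitted difference was -4.69 ± 0.70 (SE), adjusted p = 0.000176, a value that depends on the small count added before logarithms and sets no bound on the fold. Without the filter its fold change within 4T1 had an adjusted p of 0.0011.

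Members past 0.05 but not 0.001 were both regulators, Nfe2l2 (0.47 ± 0.14 (SE), adjusted p = 0.0233) and Keap1 (0.57 ± 0.21 (SE), adjusted p = 0.049), along with Gstp1 (0.76 ± 0.18 (SE), adjusted p = 0.0047) and Mgst3 (0.60 ± 0.20 (SE), adjusted p = 0.0314) on the higher side. On the lower side they were Gstt1 (-1.44 ± 0.37 (SE), adjusted p = 0.00871), Gsta4 (-0.88 ± 0.19 (SE), adjusted p = 0.00266), Prdx6 (-0.52 ± 0.16 (SE), adjusted p = 0.0202), Srxn1 (-0.48 ± 0.18 (SE), adjusted p = 0.0492) and Gpx1 (-0.39 ± 0.13 (SE), adjusted p = 0.0377). The 2 regulators stood near that threshold. Keap1 kept an adjusted p below 0.05 without 4T1 vehicle 3, 4T1 vehicle 15 or 4T1 CIX 16 and lost it without each of the other 13 samples (0.0524 to 0.111), and Nfe2l2 lost it without 67NR vehicle 1, 67NR vehicle 5 or 67NR CIX 6 (0.0563 to 0.0584). Gpx1 was at 126, 123, 117 and 111 CPM in 67NR vehicle and 91.1, 82.7, 85.0 and 86.5 CPM in 67NR CIX samples, lower under CIX without overlap as in 4T1. Without 4T1 vehicle 3, Gsta4 and Gstp1 were called too (adjusted p = 0.000273 and 0.000801) and Ugdh was not, and without 67NR vehicle 13 the same 5 members were called. The differences of the 22 members that did not pass 0.05 ran from -1.03 (Slc7a11) to 0.73 (Gclm).

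The untreated lines were compared next, and 21 of 35 members differed. Of the members that passed the filter, Ephx1, Gstm1 and Gstt1 were the lowest in 4T1 relative to 67NR, and Slc7a11, Gsta4 and Cbr1 the highest. Mgst1, which did not pass it, had a larger difference than any of these when fitted without the filter. Of 35 members, 10 were called higher in 4T1 vehicle than in 67NR vehicle and 11 lower, where 20.4% of all 11040 genes tested were called higher and 19.6% lower. At 0.05 these were 12 and 15, against 33.3% and 34.1% of all genes, and the 2 groups did not overlap in 25 of 35 members, against 62.0% of all genes. The median of the absolute log2 fold change was 0.868 over the members and 0.638 over all genes, and the median with its sign was -0.245 and -0.010. Without 67NR vehicle 13, 18 members were called, Gsr, Sod1 and Txn1 no longer among them. The call of Gsr was lost without any 1 of the 8 samples (adjusted p = 0.0016 to 0.00352), that of Sod1 without any but 4T1 vehicle 3 or 11 (0.00147 to 0.00278), that of Txn1 without any but 4T1 vehicle 3 (0.00216 to 0.00338) and that of Cat without 67NR vehicle 9 (0.00103).

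**Figure D3:**
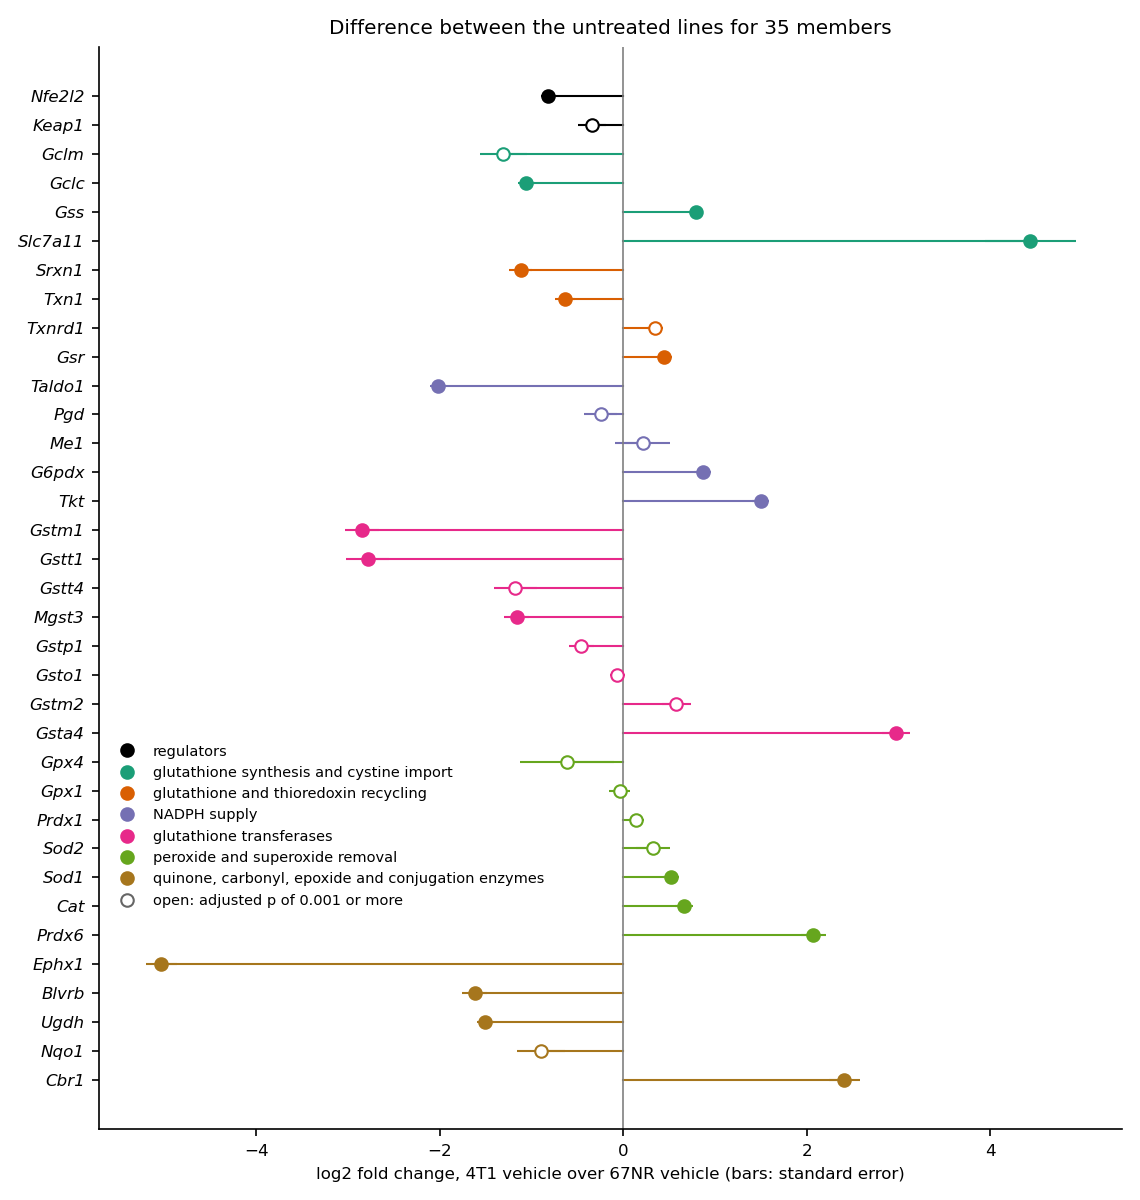
Log2 fold change of 4T1 vehicle over 67NR vehicle for the 35 members tested, grouped and coloured by role, with standard errors as bars, filled where the adjusted p was below 0.001 and open otherwise. Ephx1 lies at -5.04 and Slc7a11 at 4.44, and members on both sides of 0 occur in every role but the regulators.

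Among the regulators Nfe2l2 was lower in 4T1, at 134 ± 6.34 CPM against 234 ± 20.6 CPM (mean ± SD, n = 4), a log2 fold change of -0.82 ± 0.08 (SE), adjusted p = 1.38e-05, while Keap1 was not called (-0.34 ± 0.15 (SE), adjusted p = 0.0763). In glutathione synthesis the members differed in opposite directions. Slc7a11 was at 76.8, 56.9, 32.7 and 69.1 CPM in 4T1 vehicle samples, the lowest of which was far above the highest of 67NR vehicle, with a log2 fold change of 4.44 ± 0.50 (SE), adjusted p = 4.26e-05. Its CIX samples in 4T1 were at 81.9, 88.6, 71.5 and 88.5 CPM. Gss was higher in 4T1 (0.79 ± 0.08 (SE), adjusted p = 2.36e-05) and Gclc lower (-1.06 ± 0.09 (SE), adjusted p = 9.36e-06), while Gclm missed the threshold (-1.31 ± 0.26 (SE), adjusted p = 0.00154) and passed it without 4T1 vehicle 11 (adjusted p = 0.000734).

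Of the glutathione transferases, Gsta4 (chr9:78182774-78209349, plus strand) was at 223, 290.0, 364 and 284 CPM in 4T1 vehicle and 38.0, 38.7, 37.5 and 30.7 CPM in 67NR vehicle samples. All samples of 4T1 were several-fold higher, and the log2 fold change was 2.97 ± 0.15 (SE), adjusted p = 4.27e-07. Under CIX Gsta4 was at 199, 209, 229 and 179.6 CPM in 4T1 and 48.7, 47.5, 45.2 and 46.8 CPM in 67NR. Gstm1 (chr3:108012255-108017973, minus strand), a mu-class transferase, was at 52.8, 39.4, 25.7 and 32.9 CPM in 4T1 vehicle and 291, 257, 246 and 247 CPM in 67NR vehicle samples. Its order was the reverse of that of Gsta4, with a log2 fold change of -2.84 ± 0.19 (SE), adjusted p = 1.65e-06, and 28.8% of its 31-base words are shared with other genes. Under CIX it was at 52.4, 33.8, 22.4 and 31.7 CPM in 4T1 and 256, 234, 188 and 198 CPM in 67NR.

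Gstt1 (chr10:75783813-75798584, minus strand) was at 5.06, 8.60, 10.1 and 7.10 CPM in 4T1 vehicle and 49.1, 69.8, 47.9 and 42.1 CPM in 67NR vehicle samples, a log2 fold change of -2.79 ± 0.23 (SE), adjusted p = 6.56e-06. Under CIX it was at 4.68, 2.27, 4.11 and 2.53 CPM in 4T1, each sample below every 4T1 control, and at 66.4, 67.0, 49.0 and 63.8 CPM in 67NR. Mgst3 was lower in 4T1 as well (-1.16 ± 0.14 (SE), adjusted p = 6.36e-05). Mgst1, a membrane-bound transferase and peroxidase, had 1241 to 1383 estimated counts in 4T1 vehicle samples and 6 to 13 in 67NR vehicle samples, and was left out by the filter on low levels. Without that filter its log2 fold change was 7.14 ± 0.27 (SE), adjusted p = 1.88e-08. Gstm2 (0.58 ± 0.16 (SE), adjusted p = 0.0101), Gstp1 (-0.45 ± 0.14 (SE), adjusted p = 0.0159), Gstt4 (-1.18 ± 0.24 (SE), adjusted p = 0.00171) and Gsto1 (-0.07 ± 0.08) were not called.

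**Figure D4:**
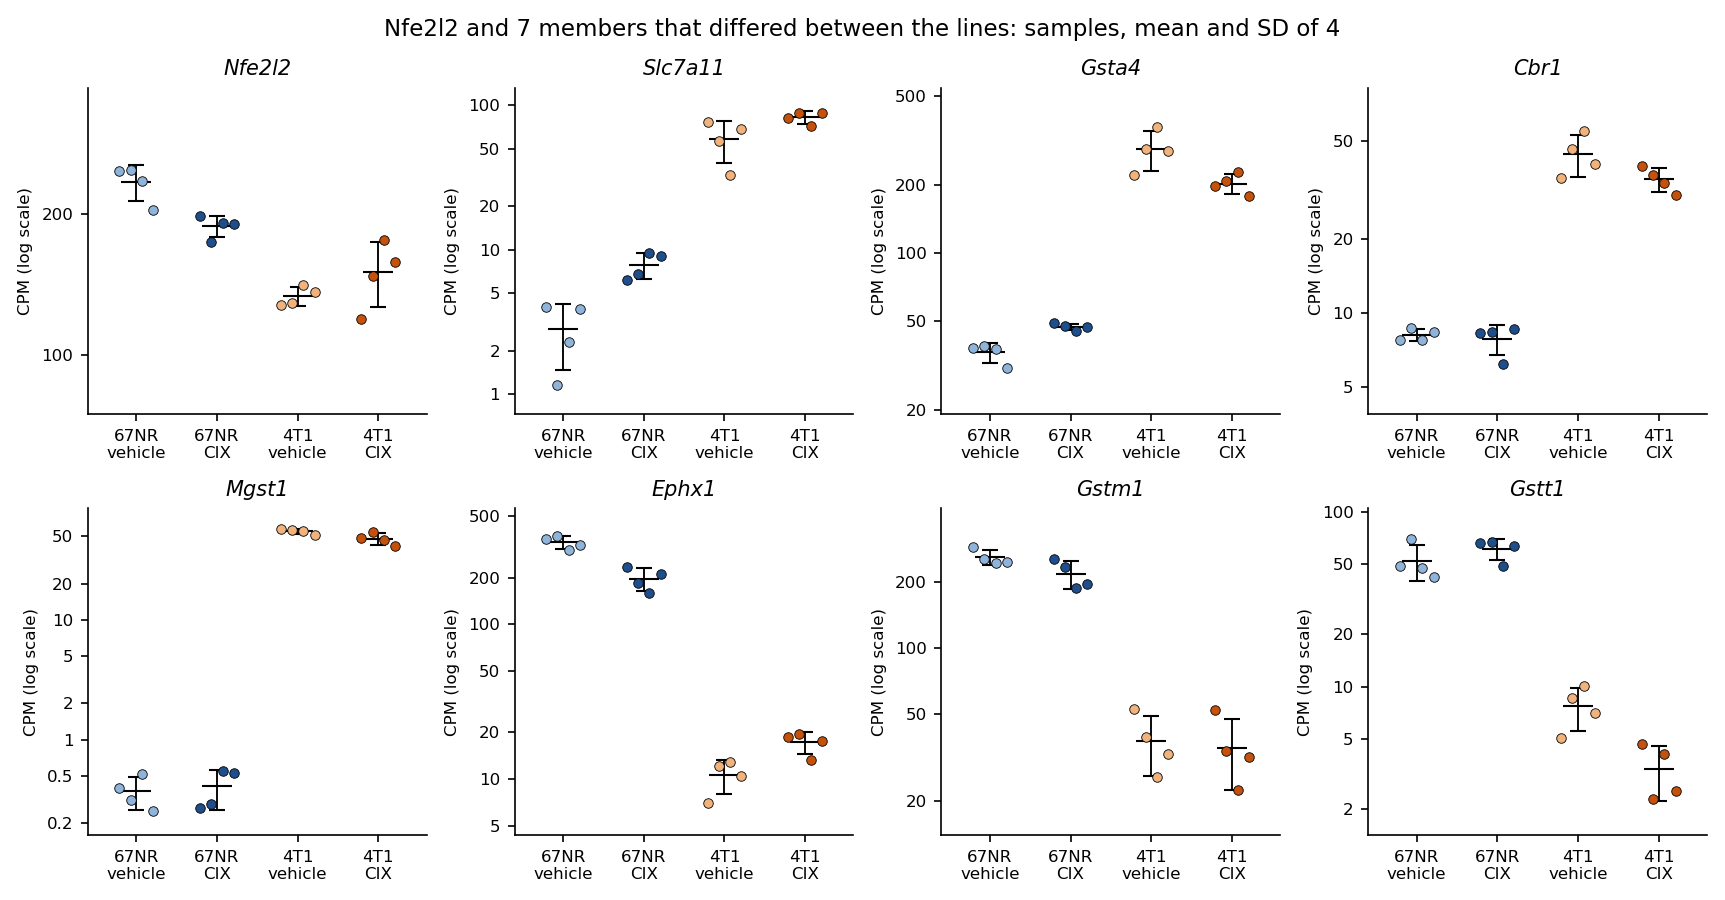
Level in CPM, on a log axis, of Nfe2l2, Slc7a11, Gsta4, Cbr1, Mgst1, Ephx1, Gstm1 and Gstt1 in each of the 16 samples (points) by group, with the mean and SD of 4 samples (bars). Slc7a11, Gsta4, Cbr1 and Mgst1 lie higher in 4T1 than in 67NR under both treatments, and Nfe2l2, Ephx1, Gstm1 and Gstt1 higher in 67NR, with 1 sample of 4T1 CIX (176 CPM of Nfe2l2) inside the range of 67NR CIX.

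Among the detoxifying enzymes Ephx1 had the largest difference of the members that passed the filter, -5.04 ± 0.17 (SE), adjusted p = 8.74e-08, with levels of 6.96 to 12.9 CPM in 4T1 vehicle and 303 to 374 CPM in 67NR vehicle. Cbr1 (chr16:93605853-93610505, plus strand), a carbonyl reductase, went the other way. It was at 35.4, 46.2, 55.0 and 40.2 CPM in 4T1 vehicle and 7.80, 8.68, 7.73 and 8.38 CPM in 67NR vehicle samples, a log2 fold change of 2.41 ± 0.17 (SE), adjusted p = 2.19e-06. Under CIX it was at 39.5, 36.3, 33.9 and 30.2 CPM in 4T1 and 8.28, 8.34, 6.20 and 8.58 CPM in 67NR, overlapping the vehicle samples of the same line. Blvrb (-1.62 ± 0.14 (SE), adjusted p = 6.87e-06) and Ugdh (-1.50 ± 0.09 (SE), adjusted p = 1.11e-06) were lower in 4T1. Nqo1 was not called (-0.90 ± 0.26 (SE), adjusted p = 0.0139), but without 4T1 vehicle 3, the control with the highest Nqo1, it was (-1.19 ± 0.17, adjusted p = 0.000354).

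The enzymes of NADPH supply were split. G6pdx (0.87 ± 0.09 (SE), adjusted p = 3.64e-05), the entry enzyme of the pentose phosphate pathway, and Tkt (1.50 ± 0.09 (SE), adjusted p = 1.36e-06), its transketolase, were higher in 4T1, and Taldo1 was lower (-2.02 ± 0.09 (SE), adjusted p = 2.3e-07), while Pgd (-0.25 ± 0.18 (SE), adjusted p = 0.247) and Me1 (0.21 ± 0.30 (SE), adjusted p = 0.552) were not called. G6pdx shares 12.6% of its 31-base words with G6pd2, so that its count is less certain. Of the recycling genes Gsr was higher (0.45 ± 0.08 (SE), adjusted p = 0.000916), Srxn1 (-1.12 ± 0.12 (SE), adjusted p = 4.01e-05) and Txn1 (-0.64 ± 0.11 (SE), adjusted p = 0.00079) were lower, and Txnrd1 missed the threshold (0.35 ± 0.08 (SE), adjusted p = 0.00445). Prdx6 (2.07 ± 0.14 (SE), adjusted p = 1.66e-06), catalase Cat (0.66 ± 0.10 (SE), adjusted p = 0.000246) and the cytosolic superoxide dismutase Sod1 (0.52 ± 0.09 (SE), adjusted p = 0.000728) were higher in 4T1. Gpx1, Prdx1, the mitochondrial dismutase Sod2 and Gpx4 were not called, with adjusted p-values of 0.793, 0.162, 0.146 and 0.316, and Sod2 shares 26.6% of its 31-base words with other genes.

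Gpx4, Me1 and Gclm varied widely within the vehicle groups. Gpx4 was at 429.7, 465, 476 and 1619.9 CPM in the 67NR vehicle samples and at 291, 448, 892 and 249 CPM in the 4T1 vehicle samples. 67NR vehicle 13 and 4T1 vehicle 11 stood far above the others. Under CIX Gpx4 was at 585, 431, 407 and 333 CPM in 67NR and 474, 336, 438 and 341 CPM in 4T1. The same 2 samples led their groups in Me1, the cytosolic malic enzyme, with 172 CPM against 71.1 to 75.2 in 67NR and 148 against 86.8 to 101 in 4T1. They also led in Gclm, with 105 CPM against 59.2 to 64.8 and 43.7 against 22.0 to 28.6. With 67NR vehicle 13 left out, the log2 fold change of CIX over vehicle in 67NR was -0.09 (adjusted p = 0.755) for Gpx4, 0.22 (0.0512) for Me1 and -0.02 (0.867) for Gclm, against -0.56, -0.10 and -0.23 with it. Between the untreated lines, leaving out 67NR vehicle 13 moved the log2 fold change of Gpx4 from -0.61 to -0.13 (adjusted p = 0.786), of Me1 from 0.21 to 0.54 (0.0256) and of Gclm from -1.31 to -1.09 (0.00173). In 4T1, the mean of Gpx4 was 909 ± 536 TPM in vehicle and 731 ± 123 TPM in CIX samples. Without 4T1 vehicle 11 the vehicle mean was 653 ± 198 TPM, below that of the CIX samples. Gclm passed an adjusted p of 0.05 for CIX over vehicle in 4T1 without that sample. Gpx4 and Me1 share 38.9% and 30.0% of their 31-base words with other genes, mainly pseudogenes.

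Beyond the members, 86 further genes of the pathway were counted. In 4T1 cells 3 of 67 tested rose under CIX and 5 fell, against 5.35% and 3.99% of all genes. Those that rose were Gstz1, an isomerase of tyrosine breakdown (2.36 ± 0.28 (SE), adjusted p = 0.000259), Slc48a1, a heme transporter (1.64 ± 0.10 (SE), adjusted p = 4.25e-05), and Ftl1, the ferritin light chain (1.43 ± 0.13 (SE), adjusted p = 8.8e-05). Ftl1 shares 57.7% of its 31-base words with other genes, mostly Ftl1-ps1, so that its count is uncertain. Among those that fell were Gstt3 (-1.52 ± 0.16 (SE), adjusted p = 0.000177), the NADP-dependent isocitrate dehydrogenase Idh1 (-1.39 ± 0.12 (SE), adjusted p = 6.7e-05) and Gpx8 (-0.90 ± 0.12 (SE), adjusted p = 0.00055). The count of Gstt3 is less certain, since it shares 14.1% of its 31-base words with other genes, mostly Gm20441. The calls of Gstz1, Gstt3 and Gpx8 were lost without 4, 3 and 6 of the 8 samples in turn, at adjusted p-values no higher than 0.00278.

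In 67NR cells 1 of 69 rose and 0 fell, against 0.182% and 0.208% of all genes. This was Hmox1, the heme oxygenase, which was at 12.4, 11.4, 10.3 and 9.82 CPM in vehicle and 30.9, 31.2, 40.8 and 37.2 CPM in CIX samples (1.64 ± 0.13 (SE), adjusted p = 0.000411). In 4T1 cells it lay the other way, at 60.5, 103, 103 and 79.9 CPM in vehicle and 35.9, 44.8, 52.2 and 36.1 CPM in CIX samples (-1.03 ± 0.20 (SE), adjusted p = 0.00288). Its call in 67NR was kept without CIX 2 and lost without each of the other 7 samples, at adjusted p-values of 0.00123 to 0.0036.

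The response differed between the lines in 9 of 73 genes, 3 higher in 4T1 and 6 lower, against 4.81% and 3.05% of all genes. Among the genes called, the largest differences on the higher side were those of Gstz1 (2.47 ± 0.28 (SE), adjusted p = 1.93e-05), Ftl1 (1.34 ± 0.17 (SE), adjusted p = 4.2e-05) and Slc48a1 (1.02 ± 0.15 (SE), adjusted p = 0.000119). On the lower side they were those of Hmox1 (-2.68 ± 0.27 (SE), adjusted p = 8.23e-06), Gstt3 (-1.75 ± 0.21 (SE), adjusted p = 2.76e-05) and Ggct (-1.64 ± 0.27 (SE), adjusted p = 0.000419), a glutathione-cycle enzyme. The difference of Ggct lost its call without 7 of the 16 samples in turn, at adjusted p-values of up to 0.00149. Between the untreated lines 24 of 63 were higher in 4T1, led by Gsta1 (6.22 ± 0.39 (SE), adjusted p = 1.3e-06), the glutathione-degrading Chac1 (3.34 ± 0.18 (SE), adjusted p = 5.76e-07) and the pentose phosphate isomerase Rpia (3.29 ± 0.12 (SE), adjusted p = 9.93e-08), and 12 were lower, led by Gstz1 (-3.67 ± 0.24 (SE), adjusted p = 1.5e-06), Ggt7 (-2.59 ± 0.24 (SE), adjusted p = 1.33e-05) and the aldehyde dehydrogenase Aldh3a1 (-2.27 ± 0.16 (SE), adjusted p = 2.65e-06), against 20.4% and 19.6% of all genes. Gsta1 shares 92.9% of its 31-base words with other genes, among them Gsta2 and Gm3776, so that its value cannot be assigned to Gsta1 alone. These orders cover only genes that passed the filter on low levels. Left out by it were, for example, Sod3, at a mean of 276 CPM in 67NR vehicle and 0.983 CPM in 4T1 vehicle, and Abcc3, at 0.461 and 25.4 CPM.

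**Figure D5:**
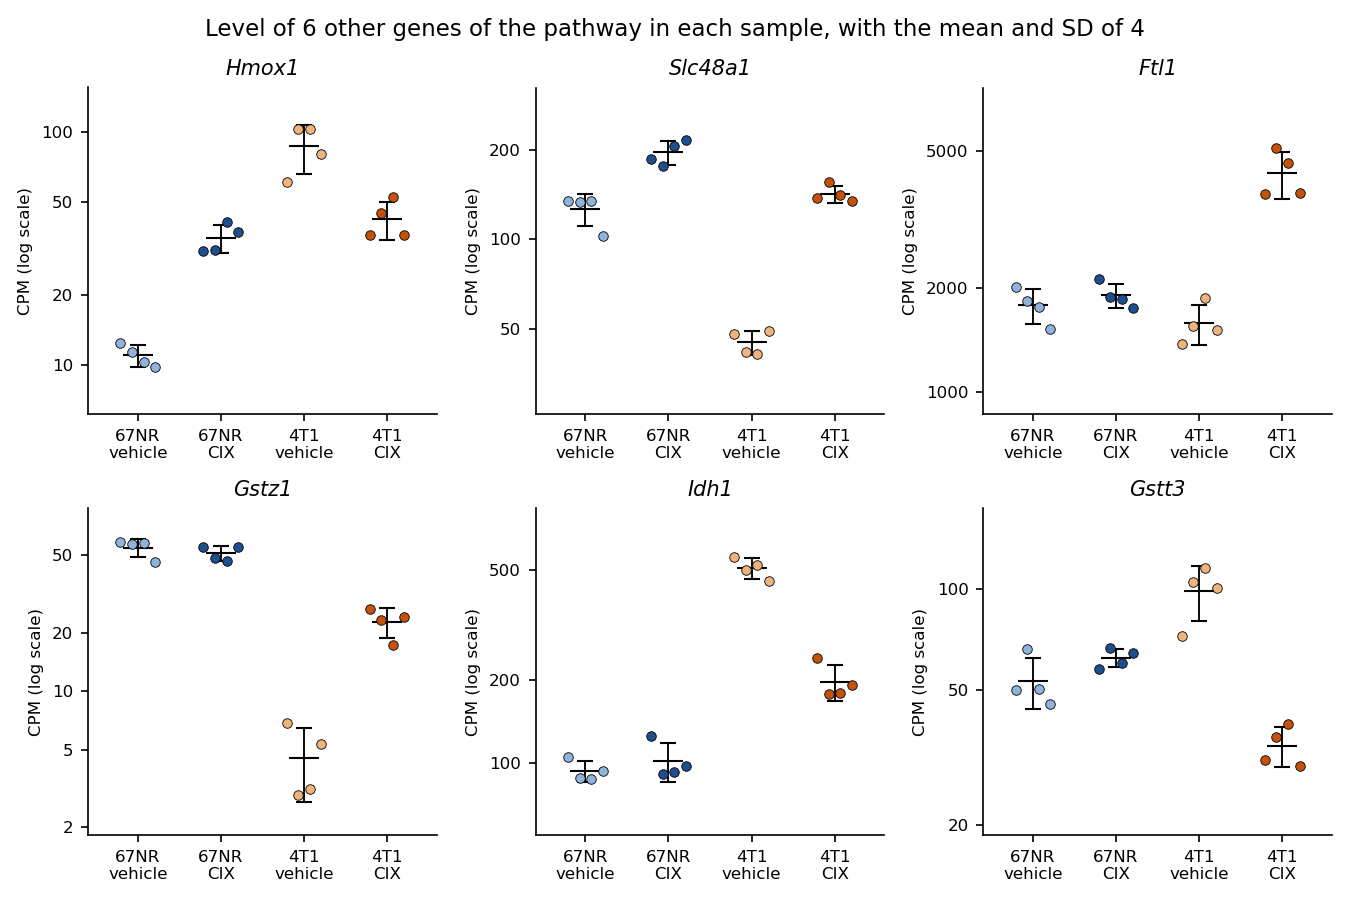
Level in CPM, on a log axis, of Hmox1, Slc48a1, Ftl1, Gstz1, Idh1 and Gstt3 in each of the 16 samples (points) by group, with the mean and SD of 4 samples (bars). Hmox1 was at 30.9 to 40.8 CPM in 67NR CIX against 9.82 to 12.4 in 67NR vehicle, and at 35.9 to 52.2 CPM in 4T1 CIX against 60.5 to 103 in 4T1 vehicle.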

How the data were processed

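Poly(A) RNA libraries from a stranded kit were sequenced by the submitters. The authors deposited 1 table of estimated counts per gene, made with Salmon (version 0.12 in the submitters' processing notes) and tximport against the Ensembl mouse transcriptome. Their methods name GRCm38 and the labels a human build, and the identifiers are mouse. Estimated counts were rounded and analysed in R 4.3.3 with limma-voom 3.58.1 after TMM scaling (edgeR 4.0.16). Genes with an approximate TPM below 1 in more than 3 of 8 samples were left out, for the interaction only where this held in both lines. Lengths came from GENCODE vM21. Adjusted p-values cover all genes tested. CPM values use TMM factors over all 16 samples. The study's methods call samples biological replicates, the labels name no separate cultures, and p-values measure the spread between these samples. The members, lists and tests were chosen with earlier results of these data known. All 36 members are accounted for, Nfe2l2, Keap1 and the up to 6 called members with the largest change per comparison in full, and up to 3 of the other genes per direction. Alternatives were edgeR, DESeq2 1.42.0, other scalings and filters, a threshold of 0.05, all 16 samples in the fit, a block of consecutive title numbers, and leaving out samples. Scripts were tested on simulated data. Promoters are RefSeq's.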

Additional observations from a re-analysis of the deposited data

Results flagged for a closer look

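In 17 of 196 gene and group combinations (the 36 members and 13 other genes named with values, in 4 groups) 1 sample lay further from the other 3 than Dixon's criterion allows, where about 1 in 20 groups is flagged by chance. In 67NR vehicle 13 these were Gclm (105 CPM against 59.2 to 64.8), Me1 (172 CPM against 71.1 to 75.2), Gsta4 (30.7 CPM against 37.5 to 38.7), Gpx4 (1619.9 CPM against 429.7 to 476), Ugdh (269 CPM against 348 to 352), Gstz1 (46.4 CPM against 57.3 to 58.3) and Slc48a1 (103 CPM against 133 to 134). In 67NR CIX 2 these were Taldo1 (319.9 CPM against 297 to 299), Gstm2 (51.5 CPM against 39.4 to 40.0), Cat (39.0 CPM against 44.9 to 44.9) and Prdx1 (519 CPM against 417 to 428). In 67NR CIX 10 these were Gsto1 (132 CPM against 117 to 119), Cbr1 (6.20 CPM against 8.28 to 8.58) and Gpx8 (126 CPM against 138 to 139). In 4T1 vehicle 3 these were Txn1 (323 CPM against 236 to 243) and Sod2 (127 CPM against 71.3 to 79.5). In 4T1 CIX 4 this was Gstp1 (207 CPM against 156 to 161). Of the 17, 7 were in 67NR vehicle 13.

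The response to CIX differed between the lines by the interaction test in 5 members and 8 of the other genes named. The log2 differences, 4T1 minus 67NR, were Taldo1 0.75, Gstt4 -4.69, Nqo1 2.34, Ephx1 1.51, Ugdh 0.72, Ftl1 1.34, Ggct -1.64, Gpx8 -0.76, Gstt3 -1.75, Gstz1 2.47, Hmox1 -2.68, Idh1 -1.48 and Slc48a1 1.02. Gstt4 could enter this test through 67NR alone, so that its call adds nothing to the count of 5.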

How the results depend on the processing

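The count of called members in 4T1, 3 by limma-voom, was 6 by DESeq2 and 6 with all 16 samples in the fit, 14 at an adjusted p of 0.05, 2 to 4 under the 5 other alternatives, and 1 to 3 when 1 sample was left out. Over all 11659 genes tested, 1089 were called by limma-voom, 3096 by DESeq2, 2679 with all 16 samples and 4982 at 0.05. The 5 other alternatives called 1033 to 1157 genes, and leaving out 1 sample 269 to 975. In 67NR the count of 0 became 9 by DESeq2 and 11 at 0.05, stayed 0 under the 6 other alternatives, and was 0 to 1 with 1 sample left out. Over all 11560 genes, 45 were called, 1040 by DESeq2 and 2054 at 0.05. The 6 other alternatives called 34 to 151 genes, and leaving out 1 sample 0 to 75. The 5 members whose response differed between the lines became 14 at 0.05, 4 to 7 under the 6 other alternatives and 3 to 6 with 1 sample left out. Gstt4, which entered this test through 67NR alone, is among the 5 and the 14 and adds nothing to either count. Over all 12605 genes, 991 were called and 3704 at 0.05. The 6 other alternatives called 823 to 1980 genes, and leaving out 1 sample 652 to 1046. The 21 members that differed between the untreated lines ran from 19 to 27 over 8 alternatives and from 17 to 21 with 1 sample left out. Over all 11040 genes, the 4420 called ran from 4299 to 7442 over these alternatives and from 3496 to 4367 with 1 sample left out. Without the filter on low levels, 21834 to 23782 genes were tested in the 4 comparisons. Of the other pathway genes, the 8 called in 4T1 ran from 7 to 24 over the alternatives and from 3 to 10 with 1 sample left out. The 1 called in 67NR ran from 0 to 14 and from 0 to 1. In the difference of the response the 9 ran from 7 to 12 and from 6 to 9. Between the untreated lines the 36 ran from 35 to 47 and from 28 to 39. The cause of these differences was not tested. For the 41 gene values given in full, 733 recomputed values held none of opposite sign. Of these 666 stayed on the same side of the threshold, 66 lost their call and 1 gained it (Nfe2l2 in 67NR by DESeq2, adjusted p = 0.000956). The labels state no pairing, and their sample numbers are all different. After the data were seen, a replicate block of consecutive title numbers (vehicle 3 with CIX 4 and so on) was fitted. Deviations from the group means correlated across genes at 0.064 to 0.42 within these pairs in 4T1 and at -0.061 to 0.073 in 67NR, and 4T1 vehicle 7 correlated better with CIX 12 (0.17) than with CIX 8. With the block 4 members were called in 4T1 (Gpx1, Gstp1, Nqo1 and Taldo1), 0 in 67NR and 4 in the difference of the response (Gstp1, Gstt4, Nqo1 and Taldo1, but not Ephx1, adjusted p = 0.00137, nor Ugdh, 0.00147), and over all genes 1142, 0 and 929 were called against 1089, 45 and 991 without it. The untreated lines have no such block. Depth limits Gstt4 in 4T1 and Mgst1 in 67NR, where a few counts decide the value.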
